A study of Mus musculus with 10 samples.

Results

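The circadian clock genes studied here were Per1, Per2, Per3, Cry1, Cry2, Arntl, Clock, Nr1d1, Nr1d2 and Dbp, chosen by name and measured in cultured mouse molars with and without insulin-like growth factor 1 (IGF1). The 10 genes were looked up by symbol among 18381 genes in the count table, and all 10 were present and tested. After 6 h with IGF1, mRNA of the repressors Cry1 and Per1 was higher than in the control teeth, by 1.49-fold and 1.40-fold respectively. Nr1d2, which encodes the nuclear receptor REV-ERB beta, was lower by 1.40-fold. The positive limb, Clock and Arntl, and the other 5 genes did not pass the test. Thus 3 of 10 passed, where 11.5% of all tested genes did. The 10 genes were chosen with earlier results of these data known, so this share is not independent of the data. With single embryos left out, 1 to 2 of the 10 passed.

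Tissue came from wild type mice of the strain C57BL/6JOlaHsd at embryonic day 14 (E14), when the molar is at the cap stage and consists of dental epithelium and the mesenchyme beside it. Each of 5 embryos, numbered 1, 2, 3, 4 and 6, gave a first lower molar to each treatment, with left and right sides balanced between treatments. The 5 IGF1 teeth were kept in hanging drops for 6 h with recombinant mouse IGF1 at 750 ng/ml, and the 5 control teeth received an equal volume of the solvent, PBS with 0.1% BSA, for the same time. Every tooth was its own RNA library, so a pair consisted of a treated and an untreated tooth of the same animal. Only 1 dose and 1 time point were available, and the hour of the day at dissection was not given in the sources used here. The values therefore show levels after 6 h of culture and no rhythm.

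In mammals, the clock is a transcriptional feedback loop that runs in most cells. CLOCK and ARNTL (BMAL1) bind as a pair to E-box sequences and activate the Period and Cryptochrome genes, whose proteins return to the nucleus to repress that pair. A second loop runs through the REV-ERB receptors (Nr1d1, Nr1d2), which repress Arntl, and the ROR receptors, which activate it, whereas DBP and its relatives act on D-box sequences. In teeth, clock proteins are known from ameloblasts and odontoblasts, and daily growth lines are laid down in enamel and dentine.

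Promoter sequences are given first for Per1, Cry1 and Ciart, which are among the called repressors, and for Per3, a Period gene that did not pass. The repressors Nr1d2, Bhlhe40 and Bhlhe41 were called as well and are not shown, so the sequences do not stand for all called genes. RefSeq windows on GRCm38.p6 reached from 250 bases upstream to 50 bases downstream of a transcription start. They were available for 9 of the 10 genes, with 13 starts between them. There was no window for Per2, nor for Bhlhe40. Only the upstream stretches free of annotated exon bases are shown, 5′ to 3′ on the coding strand, with matches to the searched letters in capitals. The letters searched on both strands were CACGTG (E-box), CACGTT (E-prime box), TTANGTAA (D-box), TAGGTCA (core of the ROR and REV-ERB element) and TGACGT (core of the cAMP response element).
Per1, first start, chr11:69098699-69098947, plus strand: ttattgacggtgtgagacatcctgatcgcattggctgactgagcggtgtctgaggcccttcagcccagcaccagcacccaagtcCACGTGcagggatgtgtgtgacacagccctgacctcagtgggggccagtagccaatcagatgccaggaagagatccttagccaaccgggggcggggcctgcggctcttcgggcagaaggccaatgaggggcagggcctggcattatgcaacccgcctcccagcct
Per1, second start, chr11:69099902-69100151, plus strand: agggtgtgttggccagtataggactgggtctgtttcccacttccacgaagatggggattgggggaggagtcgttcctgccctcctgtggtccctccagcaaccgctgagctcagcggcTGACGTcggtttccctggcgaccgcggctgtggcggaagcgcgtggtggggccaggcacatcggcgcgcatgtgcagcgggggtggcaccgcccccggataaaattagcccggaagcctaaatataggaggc
Cry1, chr10:85185065-85185304, minus strand: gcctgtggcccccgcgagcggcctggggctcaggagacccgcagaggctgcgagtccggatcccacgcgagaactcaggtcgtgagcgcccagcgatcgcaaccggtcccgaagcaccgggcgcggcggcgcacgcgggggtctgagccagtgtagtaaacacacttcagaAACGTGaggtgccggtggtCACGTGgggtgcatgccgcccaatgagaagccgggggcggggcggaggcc
Per3, chr4:151044666-151044915, minus strand: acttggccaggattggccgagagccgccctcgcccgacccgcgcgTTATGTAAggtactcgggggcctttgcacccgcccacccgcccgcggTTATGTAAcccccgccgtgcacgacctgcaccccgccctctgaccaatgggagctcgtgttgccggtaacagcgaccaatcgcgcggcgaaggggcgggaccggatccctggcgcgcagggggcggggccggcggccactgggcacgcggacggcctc
Ciart, chr3:95882252-95882478, minus strand: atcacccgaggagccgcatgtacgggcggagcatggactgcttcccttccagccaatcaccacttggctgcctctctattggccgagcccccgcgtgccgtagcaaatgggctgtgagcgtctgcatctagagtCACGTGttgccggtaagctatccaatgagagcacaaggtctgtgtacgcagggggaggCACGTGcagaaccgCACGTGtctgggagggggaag

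The first Per1 start had a CACGTG 166 bases upstream, and the second had TGACGT 132 bases upstream. In the Cry1 promoter CACGTG began 60 bases upstream and an E-prime box lay 79 bases upstream on the opposite strand. Ciart, a repressor of CLOCK and ARNTL, had CACGTG at 3 positions, 116, 58 and 44 bases upstream. Per3 had no E-box letters in its window but had TTATGTAA, a D-box match, at 205 and 158 bases upstream. Outside the sequences shown, E-prime letters were found in Cry2 at 166 bases upstream and in Nr1d1 at 28 bases upstream, and TAGGTCA was found 31 bases downstream of a start of Arntl. Bhlhe41, another repressor called below, had CACGTG 153 bases upstream. The windows of Nr1d2, Clock and Dbp held none of the 5 strings. For scale, of 32851 RefSeq promoters of the same length, 7.15% held CACGTG, 4.68% CACGTT, 2.32% TTANGTAA, 2.61% TAGGTCA and 7.51% TGACGT. A match describes letters in the window and was not tested for binding.

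Whole teeth were sequenced, so a lower number of cells of a type and less mRNA in each cell cannot be told apart. Library totals ran from 2845773 to 8403151 counts in the control teeth and from 3456634 to 8763113 in the IGF1 teeth, with embryo 1 the shallowest in each treatment. Markers of dental epithelium (Krt14, Epcam and 3 others) summed to between 1107 and 1797 counts per 1000000 counts of the library (CPM, with library sizes scaled by TMM) in control teeth and between 1436 and 1989 CPM in IGF1 teeth. Mesenchymal markers (Msx1, Pax9 and 4 others) summed to between 2589 and 3502 CPM and between 2220 and 3496 CPM respectively, so both tissues of the molar were present in every tooth. The median sum went from 1443 to 1817 CPM for epithelium and from 3148 to 2915 CPM for mesenchyme, and the median difference of the mesenchymal markers was below 0 in all 5 embryos, from -0.26 to -0.07 on the log2 scale, whereas that of the epithelial markers was 0.00033, 0.24, 0.55, -0.14 and 0.27 in embryos 1, 2, 3, 4 and 6. Among these lists, only Krt5 of the 5 epithelial markers was called, higher with IGF1, and only Vim of the 6 mesenchymal markers, lower. Of all tested genes, 11.5% were called. The sums of 4 endothelial markers, from 302 to 340 CPM in control and from 234 to 308 CPM in IGF1 teeth, and of 3 erythroid markers, from 178 to 341 CPM and from 125 to 241 CPM, were lower with IGF1 in their medians. Of the 4 endothelial markers 1 passed the test, Cdh5, and 3 did not. Both erythroid markers tested, Hbb-bt and Hba-a1, passed. Of 4 macrophage markers, which summed to between 41.0 and 60.5 CPM and between 35.5 and 55.9 CPM, Csf1r was lower, 3 were not called and 2 had a positive fold change. The median difference of the endothelial markers was below 0 in all 5 embryos, from -0.51 to -0.06 on the log2 scale. The same held for the 2 tested erythroid markers, from -0.85 to -0.25, and for the macrophage markers, from -0.32 to -0.05. Schwann cell and glial markers summed to between 8.33 and 15.1 CPM and between 7.99 and 13.6 CPM, and muscle markers to between 2.57 and 10.2 CPM and between 0.92 and 19.3 CPM. No marker was at 0 in all teeth of a treatment, and the part of these shifts in the clock values was not tested.

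Across all genes, 1666 of 14504 tested genes passed an adjusted p of 0.05, which is 11.5% of the genes. Of these, 975 genes (6.72%) were higher and 691 genes (4.76%) were lower with IGF1, and the median log2 fold change over all genes was -0.00. Calls were made with edgeR's quasi-likelihood test on paired teeth with Benjamini-Hochberg adjustment over all tested genes. Of the 10 clock genes, 3 were called, 2 higher and 1 lower, and 7 did not pass. Fold changes of the 10 had a median of 0.19 on the log2 scale, and 8 were above 0. Levels below are CPM in the order of embryos 1, 2, 3, 4 and 6.

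**Figure D1:**
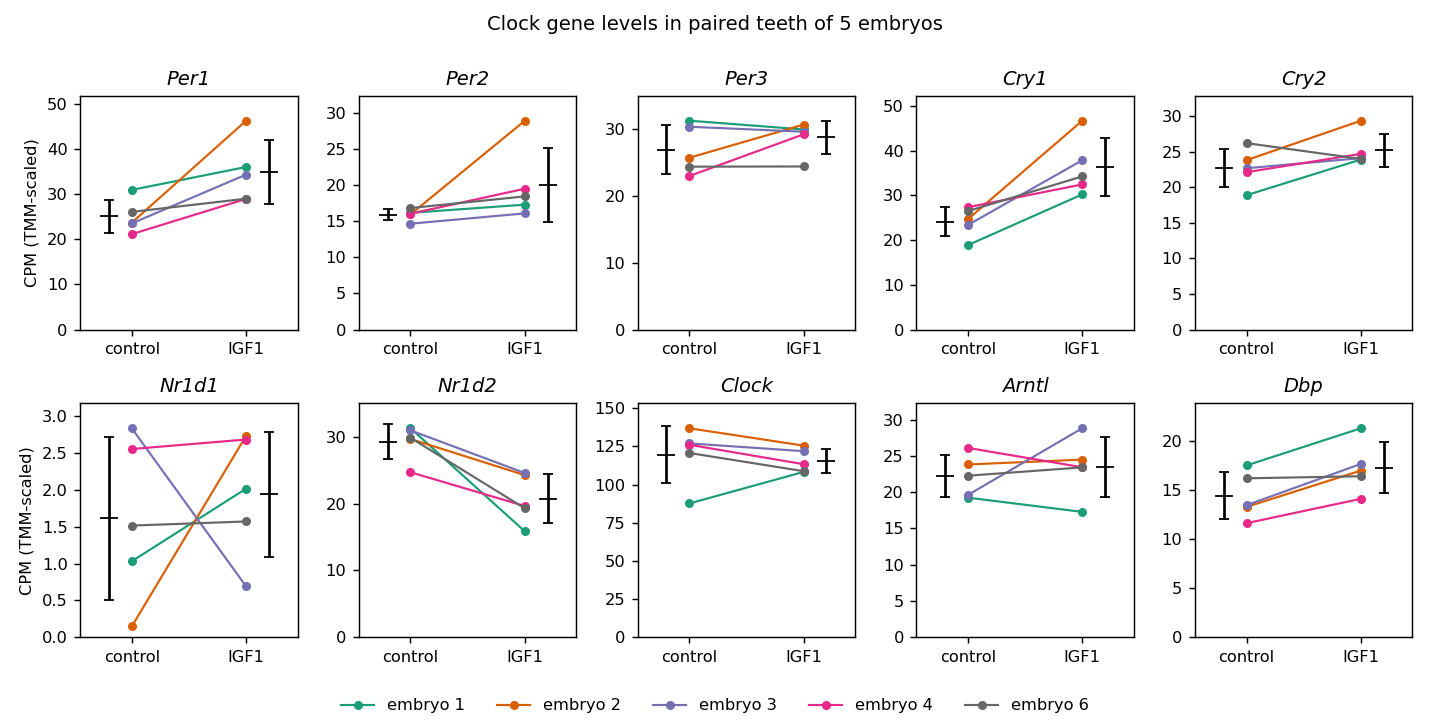
Levels of the 10 clock genes in each tooth (y axis, CPM) by treatment (x axis), where a line joins the 2 teeth of an embryo and black bars give the mean and SD of 5 teeth. The lines of Cry1 and Per1 go up and those of Nr1d2 go down in all 5 embryos.

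Cry1, which encodes cryptochrome 1, a repressor of CLOCK and ARNTL, was the clearest of the 10. The control teeth measured 18.9, 24.7, 23.4, 27.4 and 26.5 CPM. The teeth with IGF1 measured 30.2, 46.7, 37.9, 32.5 and 34.3 CPM. Every treated tooth was above every control tooth, and the highest value came from embryo 2. The mean went from 24.2 ± 3.33 to 36.3 ± 6.45 CPM (SD, n = 5), a log2 fold change of 0.58 with a standard error of 0.11 and a 95% interval of 0.33 to 0.83. Its edgeR adjusted p was 0.00803, and the exact sign-flip test on the 5 pairs gave p = 0.063, which is the smallest p that 5 pairs allow in a two-sided test. With any single embryo left out Cry1 stayed past the threshold, with log2 fold changes of 0.48 to 0.67.

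Cry2, the second cryptochrome, showed a smaller difference that did not pass. The control teeth ranged from 18.9 to 26.2 CPM and the IGF1 teeth from 23.9 to 29.4 CPM, with 4 embryos higher and embryo 6 lower. The log2 fold change was 0.14 with a 95% interval of -0.09 to 0.37 (edgeR adjusted p = 0.430). Set against each other within each pair, the Cry1 difference was larger than the Cry2 difference in 5 of 5 embryos, by 0.43 ± 0.22 on the log2 scale (SD; exact sign-flip p = 0.063, adjusted p = 0.0833 over 4 such contrasts). With 5 pairs, such a contrast cannot reach 0.05.

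Per1, the Period gene known for rapid responses to outside signals in many cells, was also higher. The control teeth measured 30.9, 23.7, 23.5, 21.1 and 26.0 CPM. The teeth with IGF1 measured 36.0, 46.2, 34.3, 28.9 and 29.0 CPM. Each embryo's treated tooth was above its own control, but the treatments overlapped, since the control tooth of embryo 1 exceeded the IGF1 teeth of embryos 4 and 6. The mean went from 25.1 ± 3.71 to 34.9 ± 7.08 CPM (SD, n = 5), and the log2 fold change was 0.48 with a standard error of 0.12, a 95% interval of 0.21 to 0.75 and an edgeR adjusted p of 0.0277. The difference was 0.96 in embryo 2 and between 0.15 and 0.54 in the others, and without embryo 2 the fold change was 0.35 with an adjusted p of 0.0969. The call was also lost without embryo 3 (adjusted p = 0.0585), without embryo 4 (adjusted p = 0.0751) and when the pairing of teeth was not used (adjusted p = 0.0662).

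Per2, the closest relative of Per1 in the feedback loop, was higher in 5 of 5 embryos without passing the test. The control teeth measured 16.1, 15.9, 14.6, 16.0 and 16.8 CPM. The teeth with IGF1 measured 17.3, 28.9, 16.1, 19.5 and 18.4 CPM. The 28.9 CPM of embryo 2 stood apart, and the IGF1 tooth of embryo 3 lay within the control values. The log2 fold change was 0.32 with a 95% interval of 0.02 to 0.62, and the edgeR adjusted p was 0.167. Without embryo 2 the log2 fold change was 0.17 (adjusted p = 0.495). Control levels of Per2 were among the most even of all genes, with an SD of 0.0713 on the log2 CPM scale against a median of 0.215 over all tested genes, and only 3.52% of genes varied less.

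Per3, the Period gene regarded as dispensable for the basic rhythm, did not pass. Its control teeth ranged from 23.0 to 31.3 CPM and its IGF1 teeth from 24.4 to 30.7 CPM, so the IGF1 range lay inside the control range. The log2 fold change was 0.11 with a 95% interval of -0.11 to 0.33 (edgeR adjusted p = 0.549), and 3 embryos were higher and 2 lower. It was 0.0661 without embryo 2 and 0.0447 without embryo 4. Within pairs, the Per1 difference exceeded that of Per3 by 0.36 ± 0.27 and that of Per2 by 0.17 ± 0.15 on the log2 scale (SD), each in 5 of 5 embryos with an exact sign-flip p of 0.063 and an adjusted p of 0.0833. The Per2 difference exceeded that of Per3 by 0.20 ± 0.24 in 4 of 5 embryos (exact sign-flip p = 0.125, adjusted p = 0.125).

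Nr1d2 was the member that was lower with IGF1. It encodes REV-ERB beta, a haem-binding repressor that acts on Arntl and other genes. The control teeth measured 31.3, 29.7, 30.9, 24.7 and 29.8 CPM. The teeth with IGF1 measured 15.8, 24.2, 24.6, 19.6 and 19.3 CPM. Every treated tooth was below every control tooth, although only barely so between the control tooth of embryo 4 and the IGF1 tooth of embryo 3. The mean went from 29.3 ± 2.66 to 20.7 ± 3.69 CPM (SD, n = 5), a log2 fold change of -0.48 with a standard error of 0.12, a 95% interval of -0.74 to -0.23 and an edgeR adjusted p of 0.0228. Embryo 1 had the largest difference, -0.97, and embryo 2 the smallest, -0.29. Without embryo 1, 4 or 6 the direction was kept but the adjusted p was 0.0603, 0.0502 or 0.0819.

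Nr1d1, which encodes the sister receptor REV-ERB alpha and is a strongly rhythmic gene in many adult tissues, was close to the limit of detection. The control teeth held 3, 1, 24, 18 and 10 counts, and the IGF1 teeth held 7, 23, 6, 19 and 11 counts. The treatments overlapped throughout, with the control tooth of embryo 2 the lowest and the control tooth of embryo 3 the highest count. The log2 fold change was 0.24 with a 95% interval of -1.04 to 1.53 (edgeR adjusted p = 0.840). A difference as large as that of Nr1d2 lay within this interval in either direction. Whether low counts or variation between teeth widened the interval was not tested. Nr1d1 shares 263 exon bases with Thra on the opposite strand, and whether the counting used strand was not given in the sources used here. Thra had a log2 fold change of 0.08 (adjusted p = 0.703).

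Clock, the partner of ARNTL and a histone acetyltransferase, did not pass. The control teeth ranged from 87.6 to 137 CPM and the IGF1 teeth from 108 to 126 CPM, all of the latter lying between the control extremes. Its log2 fold change was -0.05 with a 95% interval of -0.22 to 0.13 (edgeR adjusted p = 0.758), and with single embryos left out it lay between -0.12 and -0.0184. Arntl, the other member of the activator pair, ranged from 19.2 to 26.1 CPM in control and from 17.3 to 28.8 CPM in IGF1 teeth. Its log2 fold change was 0.09 with a 95% interval of -0.18 to 0.36 (adjusted p = 0.694). The intervals of these activators leave room for small changes in either direction.

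Dbp, an output gene of the clock whose protein activates D-box promoters, was higher in every embryo but did not pass the test across all genes. The control teeth measured 17.5, 13.3, 13.5, 11.6 and 16.2 CPM. The teeth with IGF1 measured 21.3, 17.0, 17.7, 14.1 and 16.4 CPM. The treatments overlapped, because the control tooth of embryo 1 lay above 3 of the IGF1 teeth, and the pair of embryo 6 hardly differed. The log2 fold change was 0.27 with a 95% interval of 0.01 to 0.52 and an edgeR adjusted p of 0.177. Dbp shares 539 exon bases with Sphk2 on the opposite strand, and Sphk2 had a log2 fold change of 0.04 (adjusted p = 0.866).

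**Figure D2:**
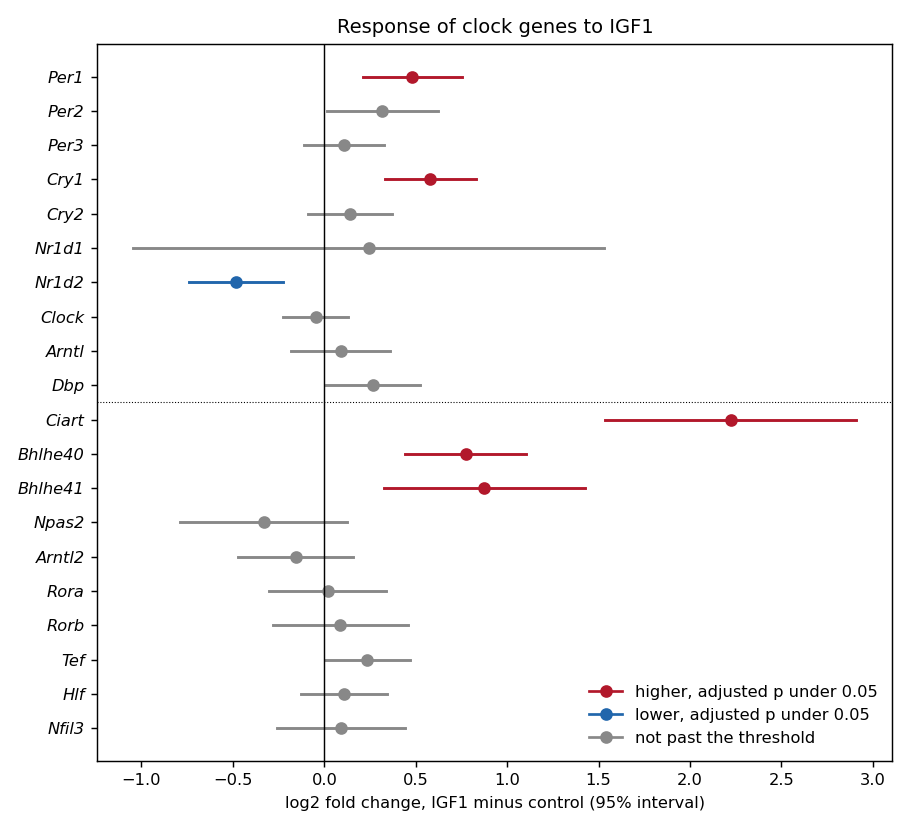
Log2 fold change of IGF1 against control (x axis) with its 95% interval for the clock genes and for their named partners (y axis), from the paired edgeR fit. Among the 10 clock genes, the intervals of Cry1, Per1 and Nr1d2 lie farthest from 0, and that of Nr1d1 is the widest.

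Counted over the 10 genes, 5 had the same direction in all 5 embryos, with Per1, Per2, Cry1 and Dbp higher and Nr1d2 lower. Of all tested genes, 24.2% had the same direction in all 5 embryos, 13.0% higher and 11.2% lower. In 2 genes, Cry1 and Nr1d2, the treatments did not overlap, against 7.25% of all tested genes (4.21% higher and 3.03% lower). The embryos did not contribute evenly. Embryo 2 had the largest difference for Per1, Per2 and Cry1, with 0.96, 0.85 and 0.91 on the log2 scale, and embryo 1 for Nr1d2. For Dbp the differences of embryos 1, 2, 3 and 4 were close together, from 0.27 to 0.38, whereas embryo 6 gave 0.02. In embryos 1, 4 and 6 alone, a choice made after seeing the data, the log2 fold changes were 0.39 for Cry1 (adjusted p = 0.0783), 0.27 for Per1 (adjusted p = 0.209) and -0.62 for Nr1d2 (adjusted p = 0.0255). That choice left out embryos 2 and 3, which had the 2 largest differences for Cry1 and Per1. It kept embryos 1 and 6, which had the 2 largest for Nr1d2, so it does not test how these changes hold.

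**Figure D3:**
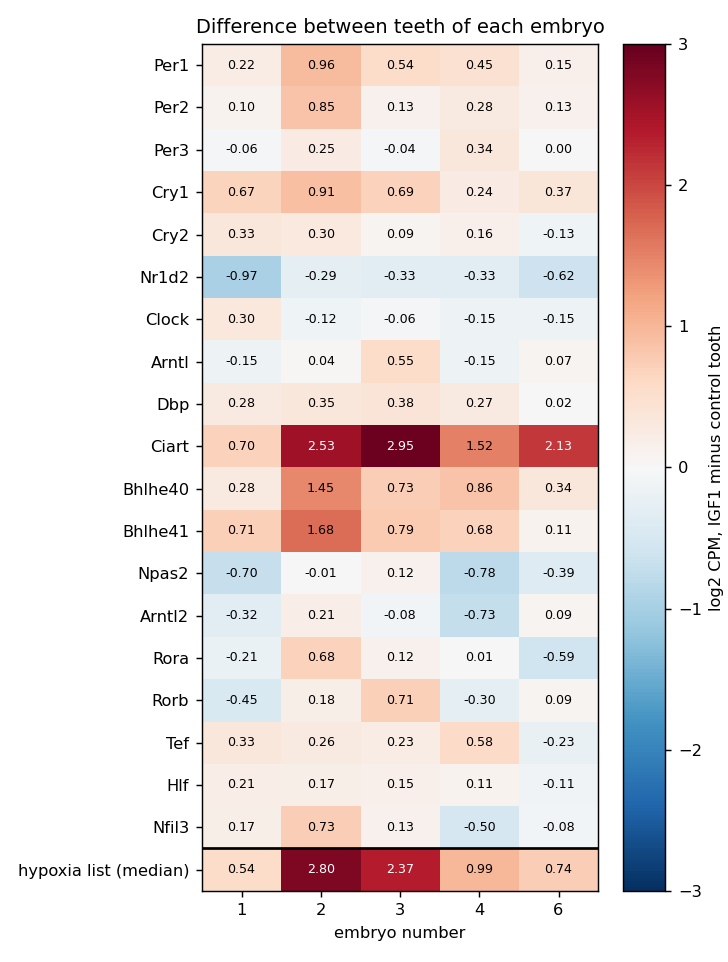
Difference in log2 CPM between the IGF1 and the control tooth of each embryo (columns) for 9 clock genes (Nr1d1, with its low counts, is left out), 10 partner genes and the median of 13 hypoxia response genes (rows), with colour giving sign and size. Embryo 2 has the largest values of Per1, Per2, Cry1, Bhlhe40 and Bhlhe41, and Nr1d2 is negative in every column.

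Levels were compared between genes as CPM per kb of merged exons, because longer transcripts give more fragments. In control teeth Clock was the highest at 8.72 ± 1.37 CPM per kb, followed by Cry1 at 7.24 ± 0.998 CPM per kb and Nr1d2 at 5.41 ± 0.492 CPM per kb (SD, n = 5). Next came Dbp at 4.82 ± 0.797 and Per1 at 4.45 ± 0.659 CPM per kb, and then Cry2 at 3.60 ± 0.421 CPM per kb. Arntl, Per3 and Per2 were close together at 2.95 ± 0.384, 2.80 ± 0.383 and 2.72 ± 0.134 CPM per kb. Nr1d1 was the lowest at 0.525 ± 0.359 CPM per kb. Neighbours in this order overlapped in their ranges over the control teeth, except that Per2 was above Nr1d1 in every tooth. The activator pair was therefore unequal at the level of mRNA, with Clock above Arntl in all control teeth.

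With IGF1, Cry1 had the highest level at 10.9 ± 1.93 CPM per kb, and Clock followed at 8.42 ± 0.568 CPM per kb with an overlapping range. Per1 at 6.20 ± 1.26 CPM per kb and Dbp at 5.78 ± 0.872 CPM per kb came next, and the range of Dbp lay above that of Cry2 at 3.99 ± 0.370 CPM per kb. Nr1d2 had rank 3 among the 10 in control teeth and rank 6 in IGF1 teeth, at 3.83 ± 0.681 CPM per kb. Its range in IGF1 teeth overlapped those of Cry2 and Per2, the genes next to it in the order. These levels depend on the annotated exon length and on how the counts were assigned to genes.

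**Figure D4:**
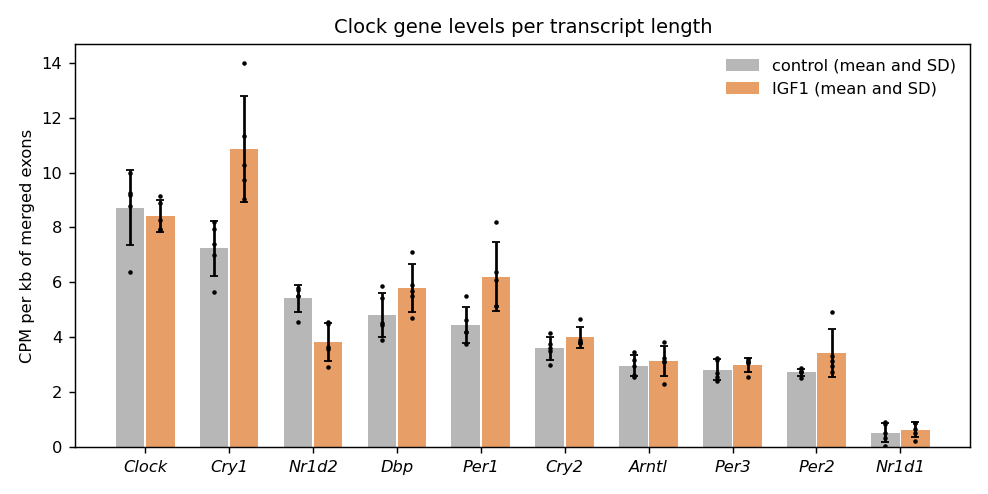
Mean level of each clock gene in CPM per kb of merged exons (y axis) in control and IGF1 teeth, with SD bars and points for the 5 teeth of each treatment, ordered by the control level. Clock and Cry1 have the highest bars and Nr1d1 the lowest in either treatment.

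Other genes of the clock were taken from lists by role. These lists were chosen with earlier results of these data known, so their shares are not independent of the data. Of 12 genes of the negative limb and other repressors, which include 7 of the 10 members, 5 were higher and 1 lower, where 6.72% of all tested genes were higher and 4.76% lower, and the median log2 fold change was 0.28. The 3 called genes beyond the members were Ciart, Bhlhe40 and Bhlhe41. Ciart, also known as CHRONO, represses CLOCK and ARNTL. Its control teeth measured 3.44, 3.51, 1.06, 2.27 and 0.909 CPM, and its IGF1 teeth 5.76, 21.8, 10.2, 7.06 and 5.00 CPM. All IGF1 teeth were above all control teeth, although the control values rested on only 6 to 24 counts. The mean was 2.24 ± 1.24 CPM in control and 9.96 ± 6.89 CPM in IGF1 teeth (SD, n = 5), and the log2 fold change was 2.22 with a standard error of 0.31 (edgeR adjusted p = 0.00134), 4.67-fold. It was the largest fold change among the clock genes named here and passed the test in all 12 alternatives in which it was tested, with adjusted p up to 0.0248. Its paired differences were 0.70, 2.53, 2.95, 1.52 and 2.13 on the log2 scale.

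Bhlhe40 and Bhlhe41 encode DEC1 and DEC2, repressors that compete for E-box sequences. The control teeth of Bhlhe40 measured 29.9, 36.8, 29.1, 24.1 and 32.6 CPM and its IGF1 teeth 36.3, 101, 48.5, 44.0 and 41.4 CPM. Only the control tooth of embryo 2 reached above an IGF1 tooth, that of embryo 1, and the log2 fold change was 0.77 with a standard error of 0.15 (edgeR adjusted p = 0.00788, and 0.0572 when the pairing was not used). The control teeth of Bhlhe41 measured 4.12, 4.09, 3.66, 3.40 and 3.94 CPM and its IGF1 teeth 6.91, 13.8, 6.54, 5.65 and 4.28 CPM. The treatments did not overlap, and the log2 fold change was 0.87 with a standard error of 0.25 (adjusted p = 0.0456). Without embryo 2 it was 0.61 with an adjusted p of 0.181, and the call was also lost without embryo 1, 3 or 4 (adjusted p = 0.0854, 0.0848 and 0.0992), without the pairing (0.0711), under the DESeq2 Wald test (0.0836) and with no filter on low counts (0.0521). In the same list, Timeless and Cipc did not pass, with log2 fold changes of 0.20 and 0.14.

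**Figure D5:**
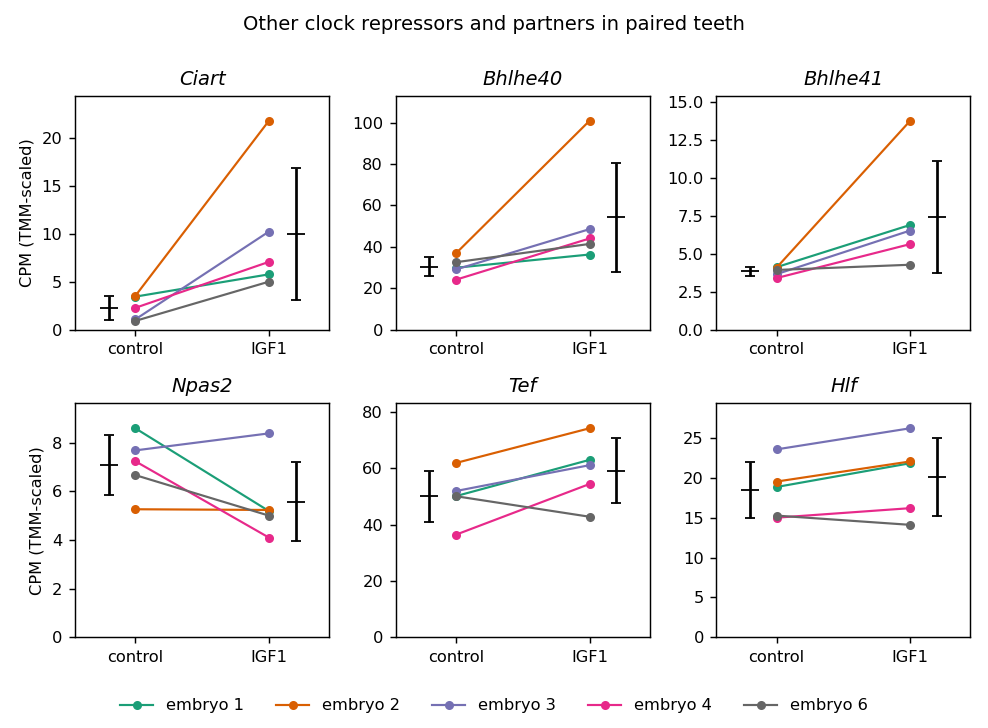
Levels of 6 partners of the clock genes in each tooth (y axis, CPM) by treatment (x axis), with lines joining the teeth of an embryo and black bars giving the mean and SD of 5 teeth. Ciart, Bhlhe40 and Bhlhe41 rise most in CPM in embryo 2, and Npas2, Tef and Hlf overlap between treatments.

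None of the 4 genes of the positive limb passed the edgeR test, which with 4 genes is close to the 11.5% of all tested genes called. Npas2, which can replace Clock, was at 7.08 ± 1.24 CPM in control and 5.58 ± 1.63 CPM in IGF1 teeth (log2 fold change -0.33, adjusted p = 0.345), and Arntl2, a relative of Arntl, had a log2 fold change of -0.16 (adjusted p = 0.536). Without embryo 4 these were -0.21 and -0.00684. Rora and Rorb, which encode activators of Arntl, did not pass and had log2 fold changes of 0.02 and 0.09 (adjusted p = 0.958 and 0.789), with the sign changing in both when embryo 3 was left out, to -0.01 and -0.10, and for Rora also without embryo 2, at -0.16.

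The factors acting on D-box sequences all had positive fold changes, as did 7171 of the 14504 tested genes, and 0 of 4 passed, which with 4 genes is close to the 11.5% of all genes called. Tef and Hlf, which like Dbp encode activators of the PAR bZIP family, had log2 fold changes of 0.23 (adjusted p = 0.186) and 0.11 (adjusted p = 0.570). That of Tef was 0.15 without embryo 4 (edgeR adjusted p = 0.476) and 0.34 without embryo 6 (adjusted p = 0.0577). Nfil3, the repressor that opposes them, had a log2 fold change of 0.09 (adjusted p = 0.757), which became -0.08 without embryo 2.

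Of 11 kinases and phosphatases that act on clock proteins 1 was called, 9.09% of the list, which is near the 11.5% of all tested genes. This was Prkaa2, which was higher, with a log2 fold change of 0.58 (edgeR adjusted p = 0.0272). It encodes a catalytic subunit of AMP-activated protein kinase, which marks cryptochromes for degradation. Its call was lost without embryo 1, 2, 3 or 4 (adjusted p = 0.0630, 0.0940, 0.0913 and 0.0517), without the pairing (0.121) and under the DESeq2 Wald test (0.0615). Siah2, a ubiquitin ligase whose product targets the REV-ERB receptors, rose with a log2 fold change of 0.84 (adjusted p = 0.0158, and 0.0528 without embryo 6). No count is given for its list, which is reported only in part. Of 10 genes that follow the clock in many tissues, Pfkfb3, Nampt and Por were higher by 1.83, 1.07 and 0.38 on the log2 scale (adjusted p = 0.00321, 0.00128 and 0.0119) and none was lower, where 6.72% of all tested genes were higher.

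Lists of genes that respond to other signals known to act on Per1 gave these values beside the clock genes. The lists were chosen with earlier results of these data known, so their shares are not independent of the data. Of all tested genes 6.72% were higher and 4.76% lower, and 1 of 10 genes of the CREB and serum response passed, a share near the 11.5% of all genes. The list had a median log2 fold change of -0.26 with 2 of 10 above 0, and its medians within embryos were -0.35, -0.04, -0.33, -0.47 and -0.16. The called gene was Egr1, which fell from 49.0 ± 4.65 to 33.4 ± 4.28 CPM (SD, n = 5; log2 fold change -0.56, edgeR adjusted p = 0.00116). Of 7 glucocorticoid response genes 2 were called, both higher (28.6% of the list). Fkbp5 was higher by 0.48 on the log2 scale (adjusted p = 0.00889), as was Per1, which is itself in that list, and the median of the fitted values of the list was -0.14, while its median within embryos was 0.22, 0.35, 0.15, 0.06 and 0.07 for embryos 1, 2, 3, 4 and 6. Of 13 tested hypoxia response genes 12 were higher, 92.3% of the list against 6.72% of all tested genes, with a median log2 fold change of 1.69. The highest were Ankrd37 with 2.90, Bnip3 with 2.20, Egln3 with 2.10 and Ero1l with 1.90. By embryo, the median of the hypoxia genes was 0.54, 2.80, 2.37, 0.99 and 0.74 for embryos 1, 2, 3, 4 and 6, and that of the 10 clock genes 0.25, 0.32, 0.11, 0.20 and 0.03. The clock median runs over genes of both directions. The 2 largest hypoxia medians were those of embryos 2 and 3. The same embryos had the 2 largest differences, in the direction of the fitted change, for 3 of the 10 clock genes, namely Per1 (0.96 and 0.54), Cry1 (0.91 and 0.69) and Dbp (0.35 and 0.38), and for 5 of the 8 other called clock-related genes reported, namely Ciart, Bhlhe41, Prkaa2, Nampt and Pfkfb3. They did not for Bhlhe40, Siah2 and Por, nor for Nr1d2, whose most negative differences were those of embryos 1 and 6 (-0.97 and -0.62). How many of all tested genes had their 2 largest differences in these embryos was not counted, so these counts have no background share. The part of the hypoxia response in the clock values was not tested.

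The position of the clock genes was examined within 500 kb on either side of each. Of 179 protein coding neighbours 122 were tested, of which 13 were higher and 2 lower, 12.3% against the 11.5% of all genes. Near Cry1 (chr10:85131700-85185064 on GRCm38), 2 of 5 tested neighbours were called, Btbd11 and Tmem263, with log2 fold changes of 0.36 and 0.41. Near Per1 (chr11:69095217-69109960), 2 of 27 were called, Aurkb with 0.37 and Pfas with 0.42. None of the 4 tested neighbours of Nr1d2 (chr14:18204054-18239127) was called, nor any of Clock and Per3. The remaining members were Per2 at chr1:91415982-91459324, Per3 at chr4:151003652-151044665, Cry2 at chr2:92403646-92434043, Nr1d1 at chr11:98767932-98775333, Clock at chr5:76209868-76304792, Arntl at chr7:113207465-113314126 and Dbp at chr7:45705088-45710203.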

How the data were processed

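Gene counts in 5 IGF1 and 5 control molars were deposited as estimated counts per Ensembl gene. Per the labels' processing notes the authors used FastQC 0.11.8, Trimmomatic 0.39, Salmon 0.99.0 and DESeq2 with GRCm38; the strand setting and transcript set were not given in the sources used here. All deposited values were whole and each of the 18381 genes had at least 10 counts in all. Symbols came from GENCODE M21 for 18287 genes. Counts were scaled by TMM, low genes were removed by filterByExpr, leaving 14504, and edgeR 4.0.16 (R 4.3.3) was fitted with embryo as a block. Benjamini-Hochberg adjusted p-values below 0.05 were called. The standard error is the log2 fold change over the square root of F. Differences per embryo used log2 CPM with a prior count of 2. The labels give both teeth of a number to 1 embryo; deviations of same-numbered teeth from their group means correlated by 0.319, 0.208, -0.0389, 0.170 and 0.313 (embryos 1, 2, 3, 4 and 6), and embryos 2 and 3 correlated more with another number (0.232). Tests cover embryos, so p-values rest on 5 pairs. Named genes were the 10 members, 10 partners, up to 4 called genes per list with the largest change and genes overlapping members. Some genes of the lists are not reported here and were left out of list values. The members and lists were chosen with earlier results of these data known. Alternatives were DESeq2 size factors, library totals, DESeq2 1.42.0, limma 3.58.1 voom, both filters, no block and each embryo left out. The scripts were tested on simulated data.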

Additional observations from a re-analysis of the deposited data

Results flagged for a closer look

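In 40 groups of 5 teeth (each named clock gene or partner in each treatment), a tooth was marked where its gap to the nearest other tooth took more than 0.71 of the group's range, which chance does in about 1 of 20 groups, or 2.0 here. This held for 8 groups. In 4 of them the tooth was the IGF1 tooth of embryo 2. It stood at 28.9 CPM for Per2 against 16.1 to 19.5 in the others (gap 0.734 of the range) and at 29.4 CPM for Cry2 against 23.9 to 24.7 (0.853). For Bhlhe40 it stood at 101 CPM against 36.3 to 48.5 (0.810), and for Bhlhe41 at 13.8 CPM against 4.28 to 6.91 (0.723). Among the IGF1 teeth, embryo 6 was low for Per3, at 24.4 CPM against 29.2 to 30.7 (0.768), and embryo 3 was high for Npas2, at 8.38 CPM against 4.09 to 5.23 (0.735). Among the control teeth, embryo 4 was low for Nr1d2, at 24.7 CPM against 29.7 to 31.3 (0.756), and for Rora, at 68.7 CPM against 82.4 to 86.9 (0.752).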

How the results depend on the processing

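The 3 calls among the clock genes, Per1, Cry1 and Nr1d2, held under DESeq2 size factors, library totals, the DESeq2 Wald test, limma-voom and both filters on low counts. Without the replicate block, 887 genes were called in place of 1666, and the clock genes called were Cry1 and Nr1d2. With each embryo left out in turn, 986 to 1602 genes and 1 to 2 of the 10 clock genes were called. Of the 51 clock-related genes reported, 11 were called (21.6%, against 11.5% of all tested genes). They were listed with earlier results of these data known, so this share is not independent of the data. The count was 7 without the replicate block, 7 to 9 with each embryo left out, 9 under the DESeq2 Wald test and 10 under either other filter. In embryos 1, 4 and 6 alone, chosen after seeing the data, 1 clock gene was called, Nr1d2. That choice kept the 2 embryos with the largest Nr1d2 differences and left out those with the largest for Cry1 and Per1. Which gene stayed called was therefore set by the choice. Of 129 values of the clock genes under other settings, 117 kept their direction and side of the threshold, 9 lost the call and 3 changed sign. Only Per1, Cry1 and Nr1d2 had a call to lose. Per1 stayed called in 8 of 13 other settings, Cry1 in 12 of 13 and Nr1d2 in 10 of 13. The sign changed for Nr1d1 (-0.35 to 0.87 with each embryo left out) and Arntl (-0.0436 to 0.15, and -0.0740 in embryos 1, 4 and 6). Among the other genes it changed for Rora (-0.16 to 0.17, and -0.27), Rorb (-0.10 to 0.19, and -0.20), Nfil3 (-0.0839 to 0.25, and -0.18) and Camta1 (-0.0639 to 0.0917, and -0.0823), and with single embryos left out for Thra (-0.0564 to 0.15) and Sphk2 (-0.0494 to 0.17); the cause was not tested. None of these 8 genes passed the test. Nr1d1 had the lowest counts of the 10 clock genes, with 1 to 24 per tooth.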
